A study of Mus musculus with 15 samples.

Results

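The clustered replication histone genes were followed in mouse embryonic fibroblasts that differ in Actb, the gene of beta-actin. Members were all genes whose symbol in the GENCODE M21 annotation begins with Hist1h, Hist2h, Hist3h or Hist4h. The rule matched 70 symbols, of which 68, among 46603 gene identifiers counted per library, were analysed here (Hist1h2bm and Hist1h2bh were not). Of the 68, 54 lie in the Hist1 cluster on chromosome 13, 10 in Hist2 on chromosome 3, 3 in Hist3 on chromosome 11 and 1 in Hist4 on chromosome 6. By class there were 6 H1, 20 H2A, 17 H2B, 12 H3 and 13 H4 genes, and 3 of the 68 (Hist1h2aj, Hist1h2al and Hist3h2bb-ps) are annotated as pseudogenes.

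The cells were BALB/c fibroblasts from embryos of 10.5 days, and all groups received an osteogenic medium with dexamethasone and forskolin from confluence (day 0), so no group without that treatment enters any comparison. The groups of 3 libraries each were KO (Actb knockout) and WT at day 4, and KO, HET (Actb heterozygote) and WT at day 14. The labels call the cells chemically reprogrammed osteoblasts, and do not say how the allele was made, how many embryos stand behind a genotype, or whether libraries of a group came from separate cultures, so p-values measure only the spread between these libraries. The study's stated aim was to compare transcriptomes of the 3 genotypes. In these bulk samples, fewer cells of a type and less RNA per cell cannot be told apart.

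Replication-dependent histone genes supply the H2A, H2B, H3 and H4 of the nucleosome core and the H1 linker histones that bind between nucleosomes, and their mRNAs are normally made in S phase, when DNA is copied. Most of these genes have no intron, and their mRNA normally ends in a short stem-loop bound by SLBP in place of a poly(A) tail. Some can also be transcribed past the stem-loop and polyadenylated, a form known from cells that have left the cell cycle. A library kit that selects poly(A) RNA captures mainly that second form, and the kit named by the labels is generally used with such selection, which the labels themselves do not state.

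The stem-loop sites of the members with the most counts are shown because the site and what lies after it decide which form of the transcript is annotated. Sequences are from the GENCODE M21 transcripts, 5′ to 3′ on the gene's strand, with GRCm38 coordinates on chromosome 13, and the 16 capitals mark the match to the pattern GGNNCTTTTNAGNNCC. Hist1h1c (chr13:23739507-23739532, plus strand), Hist1h2ap (chr13:21833026-21833049, minus strand), Hist1h2ao (chr13:21810893-21810918, plus strand) and Hist1h4i (chr13:22040961-22040986, minus strand) read as follows.
Hist1h1c: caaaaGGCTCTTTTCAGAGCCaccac
Hist1h2ap: aaaaaGGCTCTTTTCAGAGCCatc
Hist1h2ao: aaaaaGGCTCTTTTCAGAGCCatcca
Hist1h4i: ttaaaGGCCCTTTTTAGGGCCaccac

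The first 3 share the whole stem-loop, and Hist1h4i carries another stem. The annotated transcript went on for 840 bases after the stem-loop in Hist1h1c and for 330 in Hist1h4i, but for only 3 in Hist1h2ap and 31 in Hist1h2ao. The pattern was found in annotated transcripts of 42 of the 68 members, and 26 had no match in the annotated sequence, among them Hist1h2bc and Hist2h2be. Several of the 26 have short annotated transcripts, such as Hist1h4k with 312 bases and Hist1h2bl with 381. A missing match there does not show that the RNA lacks the stem-loop. Of the 42, 21 had a transcript ending over 100 bases past the stem-loop. These 21 held 65.7% of all reads counted in members, with a median of 95 counts over the 15 libraries, and 10 of them carried the poly(A) signal AATAAA in the last 40 bases of a transcript. The 21 whose transcripts ended within 100 bases of the stem-loop held 14.6% of the reads, with a median of 23 counts, and 1 carried that signal. The 26 without a match held the other 19.7%, with a median of 15 counts. The groups differ in annotated transcript length, and per kb of exon their medians were closer, at 64.1, 44.2 and 36.4 counts. Hist1h1c, among the first 21, alone held 54.7% of the members' reads.

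**Figure D1:**
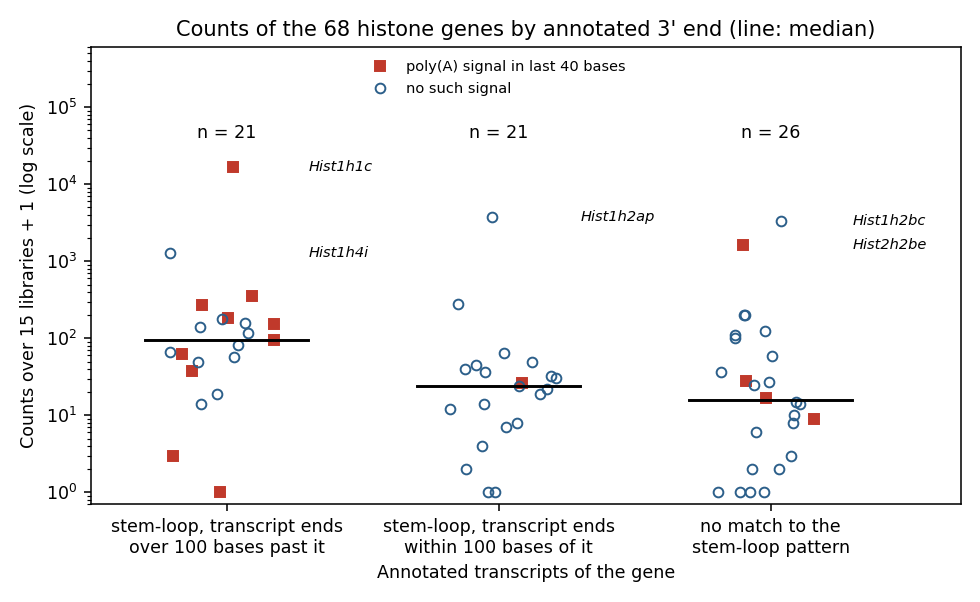
Counts over all 15 libraries plus 1 (log axis) for each of the 68 histone genes, grouped by where the annotated transcript ends past the stem-loop. Genes without a match in the annotated sequence stand apart, and their real 3′ end is not known from it. Filled squares carry a poly(A) signal in the last 40 bases, and the lines are medians of 95, 23 and 15 counts. Counts are not scaled for transcript length, and per kb of exon the medians are 64.1, 44.2 and 36.4. Hist1h1c stands far above all others.

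Reads in histone genes were few and came from few members. The members held 30361 counts over the 15 libraries. Hist1h1c alone held 54.7% of them, and the top 5 (Hist1h1c, Hist1h2ap, Hist1h2bc, Hist2h2be and Hist1h4i) held 87.8%. No library held a count for 7 members, while 35 members had 1 to 50 counts in all, 21 had 51 to 1000 and 5 had over 1000. Of the 7 without a count, Hist2h2aa1, Hist2h2aa2, Hist2h3b, Hist2h3c1 and Hist2h2bb lie wholly within exons of other annotated genes and have no 50-base stretch of their own, so their zeros do not bear on expression. The other two are Hist1h2ba and Hist1h2aa.

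Near-identical copies limit what single members can show. Over the 68, a median of 44% of the 50-base windows of a member occurred nowhere else in the annotated transcripts, and 36 members had under 50% of such windows. The share was 91.5% for Hist1h1c, 100% for Hist2h2be, 71.1% for Hist1h4i and 69.4% for Hist1h2bc, but 6.93% for Hist1h2ap and 6.5% for Hist1h2ao, whose coding sequences are identical. How reads that match several copies were treated is not given in the sources used here. Exons of 26 members overlap an exon of another gene, and the kit does not mark strand, so reads of such pairs cannot be told apart.

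Library totals were 19.9 M to 47.5 M counted reads. Actb checked the labels: it stood at 129.8 to 138.5 CPM (counts per 1000000 counted reads, TMM-scaled) in KO against 1163 to 1192 in WT at day 4, and at 43.0 to 46.5 in KO and 1436 to 1641 in HET against 2946 to 3065 in WT at day 14. Among osteoblast markers, Runx2, Alpl, Col1a1, Spp1 and Sparc could be tested, while Sp7, Ibsp and Dmp1 had at most 4 counts over any group and Bglap at most 25. HET replicate 2 stood apart from the other two HET libraries. Its chi-square per degree of freedom against them was 45.6 and 45.8, against 2.81 between replicates 1 and 3, and its ribosomal protein genes took 4.29% of counts, where the other two held 3% and 3.04%. The counts of members called in HET, and the HET differences of the members described singly, are therefore also given without it. The values of genes that are no members include HET replicate 2. The WT libraries of day 14, the reference of both day 14 comparisons with WT, also differed. Their chi-square was 9.02, 17.0 and 4.73 per degree of freedom. Within KO and WT of day 4 and KO of day 14 it was 2.15 to 2.9. Ribosomal protein genes took 3.22%, 3.64% and 4.01% of counts in WT at day 14.

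KO and HET exceeded WT in the summed level of all 68 members. At day 14 it was 133.2, 126.2 and 129.6 CPM (without TMM scaling here and for all other sums) in the KO libraries and 140.1, 179 and 128.3 in the HET libraries, against 57.8, 64.0 and 64.1 in the WT libraries. At day 4 it was 44.3, 47.9 and 48.1 in the KO libraries, against 31.8, 31.3 and 30.6 in the WT libraries. KO and WT did not overlap at either day, HET and WT did not overlap, and KO and HET did. The means stood 2.09 times as high in KO and 2.41 times as high in HET as in WT at day 14, and 1.5 times as high in KO as in WT at day 4. Without replicate 2, the HET mean was 134.2.

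The classes contributed unequally. H1 reads made up most of the genotype difference at day 14, with 73.0 to 85.3 CPM in KO and 71.1 to 95.3 in HET, against 22.6 to 26.4 in WT. Summed H2B stood at 19.3 to 24.4 in KO and 29.6 to 39.3 in HET, against 6.32 to 6.99 in WT. H2A did not follow that order: KO held 19.4 to 22.8 and HET 19.3 to 33.9, against 23.6 to 25.0 in WT. H4 stood at 6.08 to 7.01 in KO and 5.18 to 8.3 in HET, against 3.95 to 5.39 in WT, and H3 was at or under 2.84 in every library. Without Hist1h1c and Hist1h2ap, the other 66 members summed to 36.4 ± 1.93 in KO and 50.7 ± 7.64 in HET, against 17.8 ± 2.27 in WT (SD, n = 3 each). Few of these 66 carried that sum, and Hist1h2bc alone averaged 26.6 CPM (TMM-scaled) in HET. The 48 members with too few counts to test summed to 3.43 in KO and 4.81 in HET, against 3.03 in WT, and these groups overlapped.

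**Figure D2:**
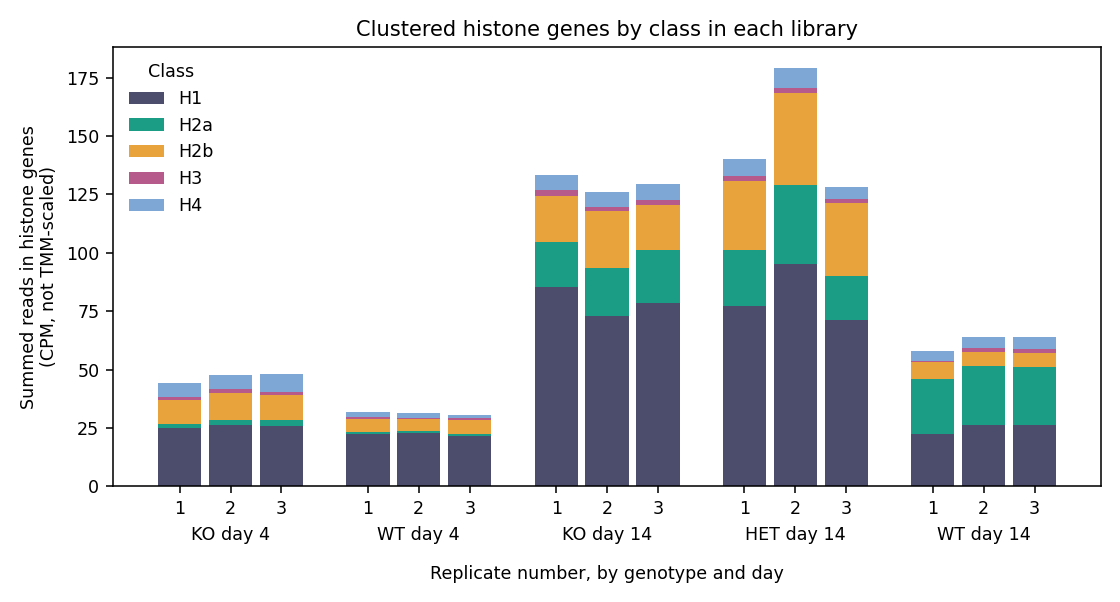
Summed reads in clustered histone genes, as CPM without TMM scaling, stacked by class, for each of the 15 libraries. The KO and HET libraries of day 14 stand at 126.2 to 179, those of WT at 57.8 to 64.1, and H2A is nearly absent at day 4.

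Of the 68 members, 20 passed the filter on low counts and were tested in edgeR's quasi-likelihood fit of 15296 genes, with Benjamini-Hochberg adjustment over all of them and a threshold of 0.05. They were 5 H1, 5 H2A, 4 H2B, 2 H3 and 4 H4 genes and held 96.5% of the members' reads. A gene low in WT could pass the filter through the group where it was high, so the counts below describe these 20 genes and no more. In KO against WT at day 14, 63.1% of all tested genes passed the threshold, 30.9% higher and 32.2% lower, and of the 20 members 9 were higher and 0 lower. HET against WT gave 9 higher and 0 lower members, beside 28.3% higher and 29.9% lower (58.3% together) of all genes. KO against WT at day 4 gave 10 higher and 0 lower members, beside 35.7% and 33.8% (69.5% together). Without HET replicate 2, 22 members passed the filter, and HET against WT gave 9 higher and 1 lower. Hist1h2al lost its call (edgeR adjusted p = 0.207), while Hist1h2bj, not among the 20, was called higher (2.58, edgeR adjusted p = 0.0225). The shares of all genes above are those with all libraries. The lower member was Hist1h2ae, an H2A gene, at 0.144, 0.998 and 0.135 CPM in HET against 0.84, 0.603 and 0.514 in WT. It was lower once the high replicate 2 was left out (log2 fold change -2.19, edgeR adjusted p = 0.00561). With all libraries, in each of these 3 comparisons no member was lower at an unadjusted p under 0.05 in edgeR, or called lower by DESeq2.

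KO against HET gave 3 higher and 3 lower members, beside 29.4% and 30.1% of all genes (59.5% together). Without HET replicate 2 it gave 4 higher and 2 lower of 22 tested, with Hist1h2ae among the higher (2.54, edgeR adjusted p = 0.00138). Day 14 against day 4 gave 8 higher and 2 lower in WT, beside 39.7% and 34.9% of all genes (74.6% together). In KO it gave 11 higher and 0 lower, beside 30.8% and 30.1% (60.9% together), with 1 member lower at an unadjusted p under 0.05 in edgeR and 0 called lower by DESeq2. The interaction, which asks whether the KO difference changes between days, gave 4 higher and 2 lower, beside 30.7% and 34% (64.7% together). The median log2 fold change of the 20 was 1.1 in KO against WT at day 14, 1.11 in HET against WT and 1.18 in KO against WT at day 4, where the median of all tested genes was -0.02, -0.02 and 0.03. KO and HET at day 14 share the same WT libraries, so their counts are not independent. Levels were low, and 9 of the 20 averaged under 1 CPM in every group.

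**Figure D3:**
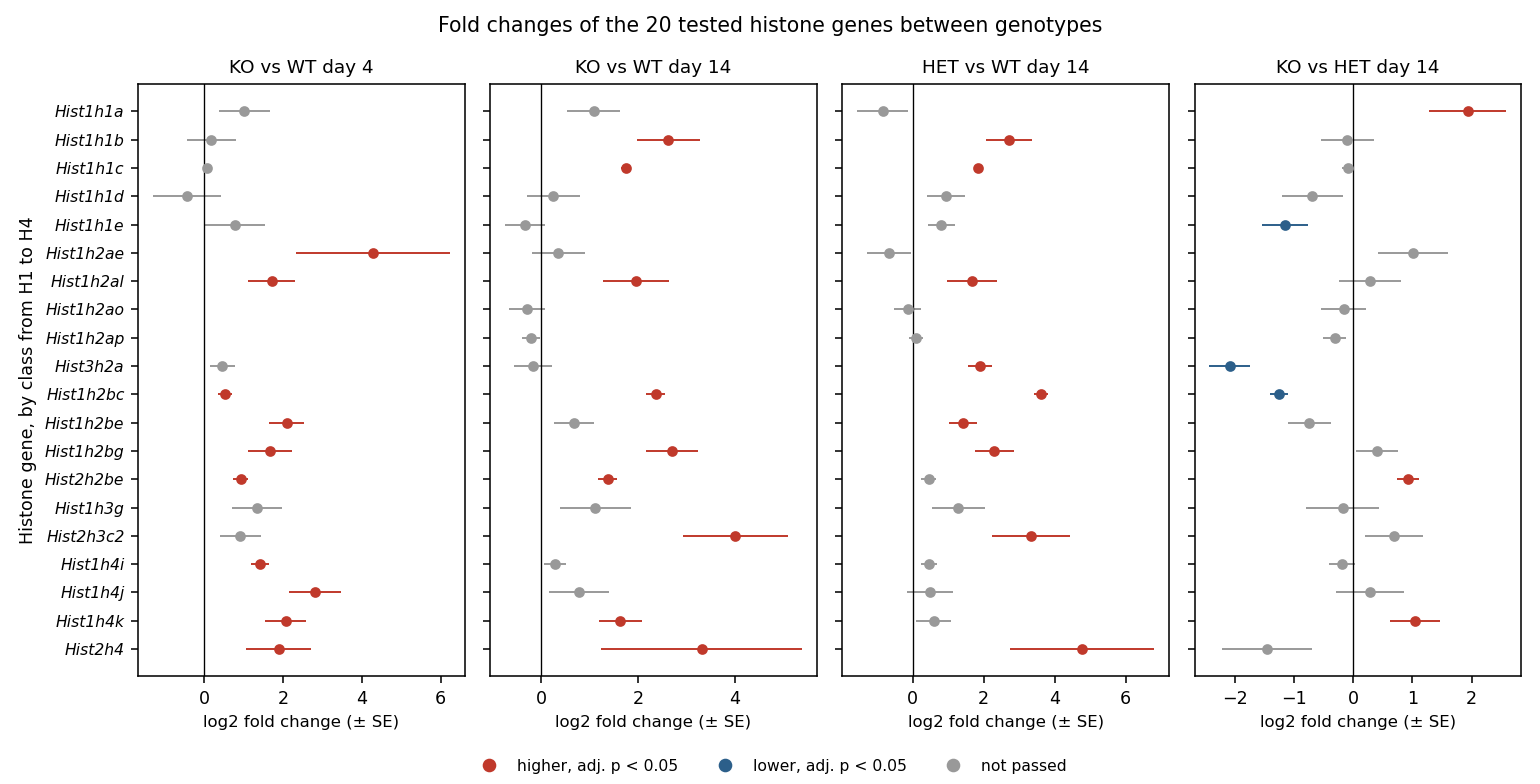
Log2 fold changes (± SE) of the 20 tested histone genes in 4 comparisons, by class from H1 at the top to H4; red is higher and blue lower past the threshold. In the first 3 comparisons every call lies to the right of 0, and in KO against HET 3 lie on each side; Hist1h2ao and Hist1h2ap have no fold change at day 4, when they had at most 2 counts in a group.

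Among linker histones, Hist1h1c (ENSMUSG00000036181, chr13:23738808-23740367, plus strand), the gene of H1.2, held the most reads of all members. At day 14 it stood at 80.8, 69.2 and 73.9 CPM in the KO libraries and 73.9, 96.4 and 67.5 in the HET libraries, against 20.4, 23.2 and 22.9 in the WT libraries. At day 4 it was 23.9, 25.4 and 25.0 in KO, against 23.6, 24.5 and 23.1 in WT. The KO and HET libraries of day 14 thus lay at about the same height, far above all other libraries, and the day 4 groups overlapped. The log2 fold change at day 14 was 1.75 ± 0.11 in KO against WT (SE, edgeR adjusted p = 1.6e-09) and 1.84 ± 0.11 in HET against WT (edgeR adjusted p = 1.04e-09). Without HET replicate 2 the HET value was 1.67. Between KO and HET it was -0.09 ± 0.1 (edgeR adjusted p = 0.497), and between KO and WT at day 4 it was 0.06 ± 0.11 (edgeR adjusted p = 0.64). With a correction for exon length and GC content, the day 4 value was -0.21 (edgeR adjusted p = 0.022).

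From day 4 to day 14 Hist1h1c rose in KO, with 1.59 ± 0.1 on the log2 scale (edgeR adjusted p = 3.04e-09), while in WT the change was -0.1 ± 0.11 (edgeR adjusted p = 0.429), or -0.58 with the length and GC correction (edgeR adjusted p = 3.35e-06). The interaction was 1.69 ± 0.15 (edgeR adjusted p = 8.92e-08). Its counts ran from 437 to 1913 per library, so counting error was small beside these differences. Hist1h1c took 58.7% of the members' reads in KO and 52.3% in HET, against 37.8% in WT at day 14. At day 4 the order was the opposite, with 53.9% in KO against 70.1% in WT. The reads of Hist1h2ap, nearly absent at day 4, enter the total at day 14, so these shares do not follow Hist1h1c alone.

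The other linker histones were far lower. Hist1h1b, the gene of H1.5, stood at 0.93, 0.868 and 1.42 CPM in KO and 1.05, 1.05 and 1.35 in HET at day 14, against 0, 0.139 and 0.374 in WT. Its log2 fold change was 2.63 ± 0.64 in KO (edgeR adjusted p = 0.001) and 2.72 ± 0.65 in HET (edgeR adjusted p = 0.000824), with no overlap with WT, and 2.78 in HET without replicate 2. The size depends on single WT libraries: without WT replicate 1 of day 14 it was 2.06 in KO and 2.15 in HET, and without WT replicate 3 it was 3.87 in KO and 3.97 in HET, each past the threshold. In KO it rose between the days by 2.28 ± 0.53 (edgeR adjusted p = 0.00112), and its interaction of 2.45 ± 0.9 (edgeR adjusted p = 0.0213) lost its call without WT replicate 1 of day 4 (edgeR adjusted p = 0.124) or KO replicate 3 of day 14 (edgeR adjusted p = 0.0515). Hist1h1e, the gene of H1.4, was lower in KO, at 0.549 ± 0.114 CPM, than in HET, at 1.23 ± 0.172 CPM (SD, n = 3 each), with a log2 fold change of -1.15 ± 0.39 (edgeR adjusted p = 0.0164). That call was lost without HET replicate 2 (edgeR adjusted p = 0.0632), KO replicate 2 (edgeR adjusted p = 0.0649) or KO replicate 3 (edgeR adjusted p = 0.057). All 5 tested H1 genes were called higher at day 14 than at day 4 in KO, beside 30.8% of all tested genes. Hist1h1a lost that call when any of the 6 KO libraries was left out (edgeR adjusted p of 0.0532 to 0.137).

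The H2A genes with the most reads, Hist1h2ap and Hist1h2ao, differed by day, and others by genotype. Hist1h2ap (ENSMUSG00000094777, chr13:21833026-21833507, minus strand) had 0, 0 and 2 counts in the KO libraries and 0, 0 and 0 in the WT libraries of day 4. At day 14 it had 345, 366 and 482 counts in KO, 401, 543 and 337 in HET and 414, 429 and 415 in WT. All 9 libraries of day 14 thus held at least 337 counts and the 6 of day 4 held 2 in all, although day 4 was sequenced more deeply per library. In WT the level at day 14 was at least 690-fold higher than at day 4 when day 4 is taken as 3 counts over its libraries, and in KO the ratio was 849 (95% counting interval 234 to 7017), which cover counting error only.

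Hist1h2ao (ENSMUSG00000094248, chr13:21810465-21810944, plus strand), its identical coding copy, had 0 counts in each of the 6 libraries of day 4. At day 14 it had 33, 25 and 32 counts in KO, 33, 37 and 17 in HET and 23, 34 and 44 in WT. The rise was at least 42.7-fold in KO and at least 55.4-fold in WT. Only 7 genes of the whole table had at most 3 counts over the 6 libraries of day 4 and at least 10 in each library of day 14, and both copies are among them, with Acot1, C130026I21Rik, Cxcl9, Edn1 and Ehf. With so few windows of their own, the 2 genes cannot be separated from each other or from other H2A copies. Whether copies were counted alike at both days was not tested. The 18 other H2A genes together stood at 2.05 to 3.15 CPM in KO and 1.8 to 2.3 in WT at day 14, and at 1.78 to 2.15 in KO and 0.646 to 0.896 in WT at day 4. Their mean at day 14 was 1.32 times that of day 4 in KO, where the days overlapped, and 2.66 times in WT, where they did not. At day 4 their mean in KO was 2.5 times that in WT, with no overlap.

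For Hist1h2ap at day 14 no genotype difference passed the threshold. It averaged 16.8 ± 2.23 CPM in KO and 21 ± 6.85 in HET, against 19.5 ± 0.314 in WT (SD, n = 3 each). The log2 fold change was -0.22 ± 0.19 in KO against WT (edgeR adjusted p = 0.337) and 0.1 ± 0.19 in HET against WT (edgeR adjusted p = 0.682). The 3 KO libraries lay just below the 3 WT libraries, and HET overlapped both. With the correction for exon length and GC content, KO against WT turned to 0.58 (edgeR adjusted p = 0.00224) and HET against WT to 0.66 (edgeR adjusted p = 0.000838), and without HET replicate 2 HET against WT was -0.19, so neither direction is settled. KO against HET gave -0.32 ± 0.19 (edgeR adjusted p = 0.169), and -0.5 without HET replicate 3 (edgeR adjusted p = 0.0214).

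Hist3h2a (ENSMUSG00000078851, chr11:58954685-58956830, plus strand) was highest in HET. At day 14 it stood at 0.761, 0.366 and 0.356 CPM in KO and 2.11, 2.05 and 2.16 in HET, against 0.28, 0.742 and 0.654 in WT. The 3 HET libraries lay together above the other 6. HET was higher than WT by 1.91 ± 0.34 (edgeR adjusted p = 0.000143) and KO was lower than HET, with -2.08 ± 0.35 (edgeR adjusted p = 6.22e-05). Without HET replicate 2 these were 1.92 and -2.1. Hist3h2a shares 33% of its exon length with Gm44313 and Trim17. The pseudogene Hist1h2al, at 4 to 16 counts in each KO and HET library, was called higher in KO at both days, by 1.7 ± 0.6 at day 4 (edgeR adjusted p = 0.0131) and 1.96 ± 0.69 at day 14 (edgeR adjusted p = 0.0133), and in HET by 1.68 ± 0.71 (edgeR adjusted p = 0.04). The day 4 call was lost without WT replicate 2 (edgeR adjusted p = 0.0699), and the HET call without HET replicate 2 (edgeR adjusted p = 0.207), HET replicate 1 (edgeR adjusted p = 0.0651) or WT replicates 1 or 3 (edgeR adjusted p = 0.105 and 0.108).

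At day 4, all 4 tested H2B genes were called higher in KO than in WT, beside 35.7% of all tested genes. Hist1h2bc (ENSMUSG00000018102, chr13:23684199-23692908, plus strand) is annotated with a spliced transcript, unlike most members. It stood at 4.89, 4.57 and 4.62 CPM in KO, against 2.79, 3.22 and 3.96 in WT at day 4. By day 14 it stood at 9.76, 13.1 and 10.6 in KO and 23.1, 33.1 and 23.5 in HET, against 2.33, 2.18 and 1.96 in WT. The 3 genotypes did not overlap at day 14, with HET highest and WT lowest.

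In log2 terms Hist1h2bc was higher at day 14 by 2.37 ± 0.2 in KO against WT (edgeR adjusted p = 2.87e-08) and by 3.62 ± 0.19 in HET against WT (edgeR adjusted p = 1.48e-10), and KO was lower than HET, with -1.25 ± 0.15 (edgeR adjusted p = 2.7e-06). Without HET replicate 2 the HET values were 3.43 and -1.07. The day 4 difference of 0.52 ± 0.17 (edgeR adjusted p = 0.0139) was lost without WT replicate 1 (edgeR adjusted p = 0.084). Between the days it rose in KO by 1.25 ± 0.16 (edgeR adjusted p = 5.88e-06) and fell in WT, with -0.6 ± 0.21 (edgeR adjusted p = 0.0162). The fall in WT was not past the threshold without WT replicate 3 of either day (edgeR adjusted p = 0.0554 for day 4 and 0.0595 for day 14). The interaction was 1.84 ± 0.26 (edgeR adjusted p = 1.3e-05).

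Hist2h2be (ENSMUSG00000068854, chr3:96221119-96223738, plus strand) was high in KO and not called in HET. At day 4 it was 3.56, 5.43 and 4.48 CPM in KO, against 2.79, 2.05 and 2.19 in WT. By day 14 it was 7.14, 7.91 and 6.56 in KO and 2.97, 3.89 and 4.5 in HET, against 3.22, 2.55 and 2.57 in WT. The KO level exceeded WT at day 4 and day 14, by 0.92 ± 0.19 at day 4 (edgeR adjusted p = 0.000436) and by 1.37 ± 0.2 at day 14 (edgeR adjusted p = 1.8e-05). It was also higher than HET, by 0.92 ± 0.19 (edgeR adjusted p = 0.000581), and HET overlapped WT (0.45 ± 0.21, edgeR adjusted p = 0.0789). That last difference was 0.6 without HET replicate 1 (edgeR adjusted p = 0.0287) and 0.43 without HET replicate 2 (edgeR adjusted p = 0.11), where KO against HET was 0.94. This gene and Hist1h2bc thus ordered KO and HET in opposite ways, each past the threshold.

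The other two tested H2B genes were at low levels. Hist1h2bg stood at 0.933 ± 0.225 CPM in KO and 0.696 ± 0.289 in HET, against 0.14 ± 0.0468 in WT at day 14, and at 0.279 ± 0.0368 in KO against 0.0835 ± 0.0312 in WT at day 4 (SD, n = 3 each). It was called in all 3 comparisons with WT, by 2.7 ± 0.54, 2.29 ± 0.55 and 1.67 ± 0.57 (edgeR adjusted p = 9.91e-05, 0.000701 and 0.00842). Without HET replicate 2 the HET value was 2.58, and the day 4 call was lost with the length and GC correction together with a block for the replicate number (1.36, edgeR adjusted p = 0.0525). Hist1h2be, which shares part of its exons with Hist1h1e, was called in KO at day 4 and in HET, also without HET replicate 2 (1.35, edgeR adjusted p = 0.0132).

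The H3 genes gave few reads, and the 2 that could be tested are named here to account for the class. Hist2h3c2 had 40 counts in KO and 22 in HET, against 2 in WT over the libraries of day 14. The ratio to WT was 18.2 in KO (95% counting interval 4.72 to 155) and 11.4 in HET (95% counting interval 2.8 to 100.1). Both differences passed the threshold (edgeR adjusted p = 0.00021 in KO and 0.00233 in HET), and the interval shows how wide the size is. The HET call held without HET replicate 2 (edgeR adjusted p = 0.003). Hist2h3c2 differs from Hist2h3b by 1 base of coding sequence, and 36.5% of its windows are its own. Hist1h3g did not pass in any comparison.

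The H4 genes differed most at day 4, when all 4 tested were called higher in KO than in WT, beside 35.7% of all tested genes. Hist1h4i (ENSMUSG00000060639, chr13:22040636-22041362, minus strand) stood at 3.11, 4.38 and 4.65 CPM in KO, against 1.81, 1.51 and 1.14 in WT at day 4. By day 14 it stood at 4.06, 3.47 and 3.67 in KO and 4.31, 5.25 and 3.24 in HET, against 2.29, 3.52 and 3.46 in WT, and each pair of groups overlapped. The log2 fold change of KO against WT was 1.41 ± 0.23 at day 4 (edgeR adjusted p = 4.48e-05) and 0.27 ± 0.23 at day 14 (edgeR adjusted p = 0.316). WT rose between the days by 1.02 ± 0.24 (edgeR adjusted p = 0.00132), KO gave -0.11 ± 0.22 (edgeR adjusted p = 0.668), and the interaction was -1.14 ± 0.33 (edgeR adjusted p = 0.00611). HET against WT, at 0.46 ± 0.23 (edgeR adjusted p = 0.101), passed without HET replicate 3 (0.63, edgeR adjusted p = 0.0363) and was 0.28 without HET replicate 2.

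Hist1h4k stood at 0.566 ± 0.179 CPM in KO against 0.139 ± 0.0413 in WT at day 4, and at 1.07 ± 0.17 in KO and 0.52 ± 0.152 in HET against 0.342 ± 0.24 in WT at day 14 (SD, n = 3 each). KO was higher than WT by 2.06 ± 0.52 at day 4 (edgeR adjusted p = 0.00129) and by 1.63 ± 0.45 at day 14 (edgeR adjusted p = 0.00408). Its differences between KO and HET (1.04 ± 0.42) and between days in WT (1.33 ± 0.57), each with an edgeR adjusted p of 0.0397, were each lost in several alternatives. KO against HET gave an edgeR adjusted p of 0.132 without HET replicate 1, and 1.27 (edgeR adjusted p = 0.0359) without HET replicate 2. The difference between days in WT was 0.63 without WT replicate 1 of day 14 (edgeR adjusted p = 0.364), 0.59 with the length and GC correction (edgeR adjusted p = 0.356) and 0.56 with that correction and the replicate block (edgeR adjusted p = 0.404). Hist2h4 was called higher in all 3 comparisons with WT from 14 counts over the KO libraries and 34 over the HET libraries against 1 over the WT libraries at day 14, and from 36 in KO against 10 in WT at day 4. The HET call of Hist2h4 held without HET replicate 2 (edgeR adjusted p = 0.000741). Its KO calls held least: without KO replicate 3 of day 14 the edgeR adjusted p was 0.356 at day 14, and without KO replicate 3 of day 4 it was 0.142 at day 4. Besides Hist2h4, the members called in all 3 comparisons were Hist1h2al, Hist1h2bc and Hist1h2bg.

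**Figure D4:**
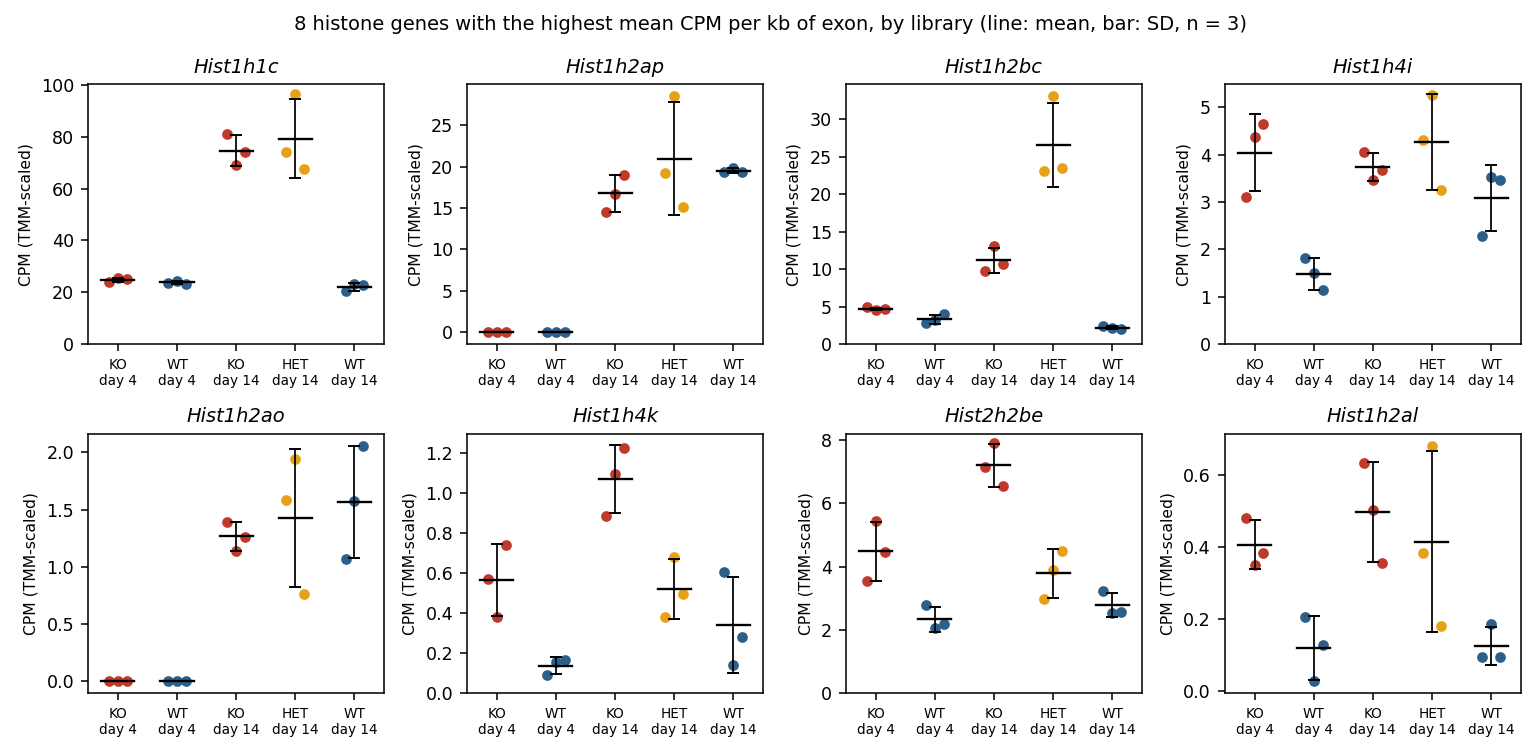
TMM-scaled CPM of the 8 histone genes with the highest mean CPM per kb of exon, by library; colours are genotypes, lines are means and bars are SD of 3 libraries. Hist1h1c and Hist1h2bc separate KO and HET from WT at day 14, Hist1h2ap and Hist1h2ao appear at day 14 in every genotype, and Hist1h4i separates KO from WT at day 4.

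Levels per kilobase of exon are given for the most read members, but since the copies differ in how many windows are their own and the treatment of reads with several matches is unknown, no order between genes is read from them. At day 14 Hist1h1c averaged 47.9 CPM per kb in KO and 50.8 in HET, against 14.2 in WT. Hist1h2ap averaged 34.8 in KO and 43.5 in HET, against 40.5 in WT. Hist1h2bc averaged 9.65 in KO and 23.0 in HET, against 1.87 in WT, Hist1h4i 5.14 in KO and 5.87 in HET, against 4.25 in WT, and Hist2h2be 2.75 in KO and 1.45 in HET, against 1.06 in WT.

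The promoters of 2 members are shown because their levels split by genotype (Hist1h1c) and by day (Hist1h2ap). Sequences are RefSeq's on GRCm38.p6, from 250 bases before to 50 after the annotated start, at chr13:23738557-23738856 on the plus strand for Hist1h1c and chr13:21833426-21833725 on the minus strand for Hist1h2ap. Capitals mark matches to TATAAA (known as the TATA box), CCAAT (bound by NF-Y), ATTTGCAT (the octamer bound by Oct-1) or AAACACA (the H1 box) on either strand, each searched alone, so that overlapping matches would both count.
Hist1h1c: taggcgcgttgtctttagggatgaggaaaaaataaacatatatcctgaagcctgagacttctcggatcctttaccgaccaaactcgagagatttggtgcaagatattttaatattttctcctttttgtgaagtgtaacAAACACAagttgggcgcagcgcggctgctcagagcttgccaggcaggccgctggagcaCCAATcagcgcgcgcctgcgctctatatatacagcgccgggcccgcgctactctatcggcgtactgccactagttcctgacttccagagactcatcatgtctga
Hist1h2ap: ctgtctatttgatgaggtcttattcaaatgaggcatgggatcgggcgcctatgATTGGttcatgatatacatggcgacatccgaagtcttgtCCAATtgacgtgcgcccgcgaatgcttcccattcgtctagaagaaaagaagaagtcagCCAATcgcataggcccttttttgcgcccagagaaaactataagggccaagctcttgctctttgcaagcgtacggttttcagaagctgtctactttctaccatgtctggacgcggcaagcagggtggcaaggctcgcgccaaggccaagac

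The Hist1h1c window holds AAACACA 112 bases before the start and CCAAT 54 bases before it. The Hist1h2ap window holds 3 matches to CCAAT, and 200 bases in a row of it are also found in the window of Hist1h2ao. RefSeq promoters were matched to 60 members, with 61 windows. CCAAT was found in all 6 H1, 18 H2A, 15 H2B and 10 H3 windows and in 3 of 12 H4 windows, against 37.4% of the 32851 promoters in the RefSeq table. TATAAA was found in 35 of 61 (13.6% of all promoters), ATTTGCAT in 7 H2A and 6 H2B windows (1.74% of all), and AAACACA in 5 of 6 H1 windows (7.18% of all). H2A and H2B genes often lie head to head, so their windows overlap and are not independent. A match describes letters and is no sign of binding.

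Genes that act in making, processing or carrying histones went both ways. Of 22 tested genes of histone transcription and 3′ end processing, 1 was higher and 14 lower in KO than in WT at day 4, 5 were higher and 8 lower in KO at day 14, and 5 higher and 7 lower in HET. Of all tested genes, 35.7% were higher and 33.8% lower in KO at day 4. At day 14 the shares were 30.9% and 32.2% in KO and 28.3% and 29.9% in HET. Slbp, whose protein binds the stem-loop, averaged 170.5 ± 6.21 CPM in KO and 176.3 ± 31.9 in HET, against 239.6 ± 19.4 in WT at day 14. It was lower, with log2 fold changes of -0.49 ± 0.09 in KO (edgeR adjusted p = 0.000276) and -0.44 ± 0.09 in HET (edgeR adjusted p = 0.00073), and of -0.42 ± 0.09 in KO at day 4 (edgeR adjusted p = 0.000792). Npat, the coactivator of histone gene transcription, was lower in KO at day 4 (log2 fold change -0.65 ± 0.1, edgeR adjusted p = 2.77e-05) and higher at day 14, by 0.31 ± 0.1 in KO (edgeR adjusted p = 0.017) and 0.46 ± 0.1 in HET (edgeR adjusted p = 0.00133). Cpsf2, a subunit of the cleavage machinery, was higher at day 14 in KO by 0.66 ± 0.06 (edgeR adjusted p = 2.9e-07).

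Of 32 tested genes of S phase and DNA replication, 3 were higher and 22 lower in KO at day 4, where 35.7% of all genes were higher and 33.8% lower. In KO at day 14, 7 were higher and 13 lower, beside 30.9% and 32.2% of all genes, and in HET 9 were higher and 13 lower, beside 28.3% and 29.9%. The median log2 fold change of the 32 was -0.22 in KO at day 4, -0.07 in KO at day 14 and -0.1 in HET, where that of all genes was 0.03, -0.02 and -0.02. The list was not tested against other genes. Pcna, the DNA polymerase clamp, was lower in KO than in WT, with -0.21 ± 0.08 at day 4 (edgeR adjusted p = 0.0251) and -0.32 ± 0.08 at day 14 (edgeR adjusted p = 0.00226). Tk1, thymidine kinase, was higher in KO at day 4 by 1.29 ± 0.06 (edgeR adjusted p = 2.9e-11). Of 24 histone chaperone and import genes, 1 was higher and 18 lower in KO at day 4, and 7 were higher and 11 lower in KO at day 14. Ipo4, an importin that carries histones, was lower in KO at day 4, with -0.96 ± 0.04 (edgeR adjusted p = 1.1e-11).

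Of 20 mitosis genes tested, 16 were higher and 0 lower in KO than in WT at day 4, with 0 lower at an unadjusted p under 0.05 in edgeR. Of all tested genes, 35.7% were higher and 33.8% lower there. In KO at day 14, 3 of the 20 were higher and 12 lower, beside 30.9% and 32.2% of all genes. HET gave 6 higher and 4 lower, beside 28.3% and 29.9%. Mki67, the proliferation marker Ki-67, averaged 254.6 ± 2.6 CPM in KO against 160.2 ± 4.65 in WT at day 4 and was higher by 0.67 ± 0.12 (edgeR adjusted p = 0.000132). By day 14 it averaged 211.2 ± 7.7 in KO and 204.2 ± 45.5 in HET, against 186.6 ± 23.4 in WT, with log2 fold changes of 0.18 ± 0.12 and 0.13 ± 0.12 (edgeR adjusted p = 0.212 and 0.375). Of the 17 cell cycle inhibitor and quiescence genes tested, 4 were higher and 7 lower in KO at day 14, 8 higher and 4 lower in HET, and 7 higher and 8 lower in KO at day 4. Cdkn1a, the inhibitor p21, was higher at day 14 in KO by 0.63 ± 0.05 (edgeR adjusted p = 2.8e-08) and in HET by 0.89 ± 0.05 (edgeR adjusted p = 4.9e-10).

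**Figure D5:**
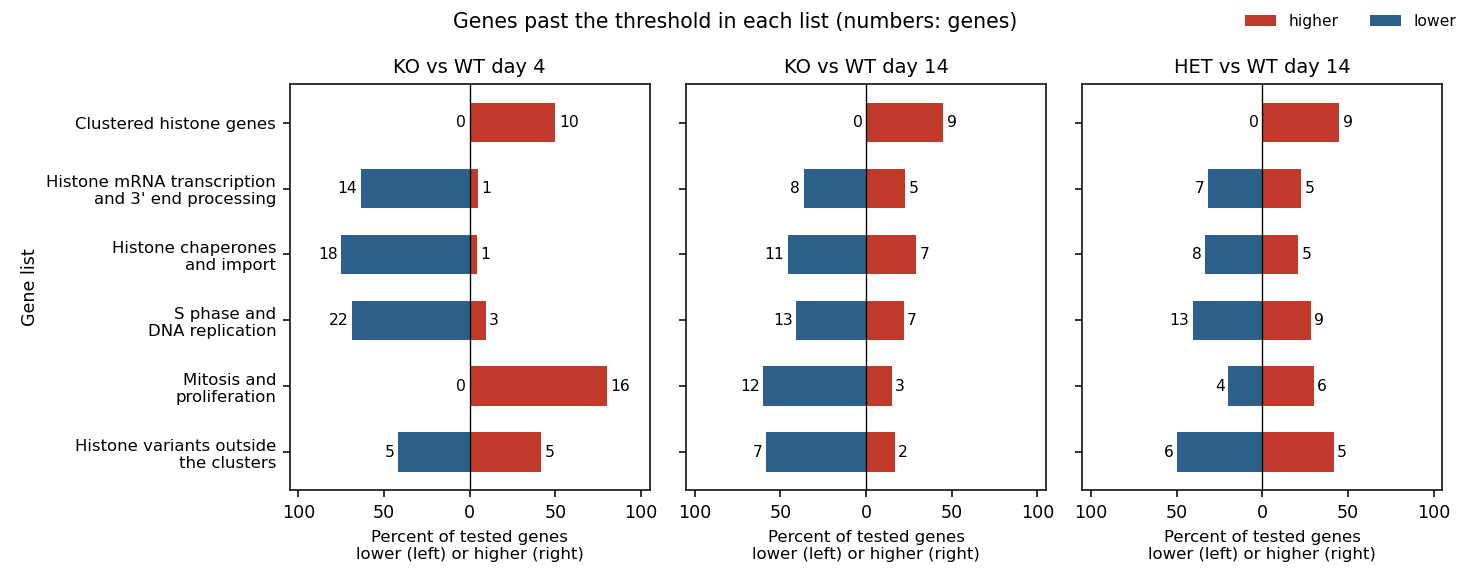
Percent of the tested genes of each list that were lower (blue, left) or higher (red, right) past the threshold in 3 comparisons, with the number of genes beside each bar. The clustered histone genes have calls to the right only, with 10, 9 and 9 genes, while replication and processing genes have more calls to the left than to the right. Of all tested genes, 28.3% to 35.7% were higher and 29.9% to 33.8% lower in these comparisons.

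Histone genes outside the clusters, most of whose mRNAs carry poly(A) tails, went both ways. Of 12 tested, 5 were higher and 5 lower in KO at day 4, beside 35.7% and 33.8% of all tested genes. At day 14, 2 were higher and 7 lower in KO, beside 30.9% and 32.2%, and 5 higher and 6 lower in HET, beside 28.3% and 29.9%. H1f0, the replacement linker histone H1.0, averaged 747.6 ± 20.9 CPM in KO against 270.6 ± 4.89 in WT at day 4, and 297.4 ± 5.41 in KO and 663.4 ± 20.2 in HET against 518.8 ± 14 in WT at day 14. Its KO difference was 1.47 ± 0.04 at day 4 (edgeR adjusted p = 1.31e-13) and -0.8 ± 0.04 at day 14 (edgeR adjusted p = 3.87e-10). The interaction of H1f0 was -2.27 ± 0.06 (edgeR adjusted p = 1.07e-13). H2afz, the variant H2A.Z, was lower in KO at day 4, with -0.36 ± 0.12 (edgeR adjusted p = 0.0173), and in HET at day 14, with -0.48 ± 0.13 (edgeR adjusted p = 0.00393).

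Other RNAs that lack a poly(A) tail were also counted. The 14 listed (Rn7sk, Rmrp, Rpph1 and small RNAs) summed to 3.5 to 3.87 CPM in KO and 4.75 to 6.13 in WT at day 4, and to 3.82 to 6.16 in KO, 11.5 to 17.1 in HET and 7.29 to 19.8 in WT at day 14. Most of these counts were of Rn7sk, with 2422 over the 15 libraries. The sum was lower in KO than in WT at each day, and in HET it overlapped that of WT. Between the days the sum rose in WT and overlapped in KO. Rnu7, the RNA of the histone processing complex, is at 0 in every library. The part of such RNA in the histone levels was not tested. Markers of other cell types moved too: 1 of 5 adipocyte markers, Fabp4, could be tested and averaged 419 CPM in KO and 262 in HET, against 13.7 in WT at day 14, while Adipoq, Plin1, Cidec and Lep had at most 4 counts over any group. The summed level of 8 macrophage and other blood cell markers was 120 in KO and 153 in HET, against 36.5 in WT at day 14, and 85.8 in KO against 82.0 in WT at day 4. Nearly all of it was Cd14 and Cd68, while the defining markers Ptprc, Adgre1, Itgam and Cd3e had at most 17 counts over any group and Csf1r stood at 0.0566 CPM in KO and 0.307 in HET, against 0.59 in WT at day 14. The summed level of 8 fibroblast markers was 3509 in KO against 2019 in WT at day 4. At day 14 it was 2896 in KO and 2990 in HET against 1517 in WT. Between the days the fibroblast sum fell in KO and WT. The place of HET in that sum depended on Col1a2, which stood at 489 CPM in HET and at most 2.61 in the mean of any other group. Single fibroblast markers went both ways at day 14: Vim averaged 1506 CPM in KO against 679 in WT, and Pdgfrb 16.1 against 100. The 5 endothelial markers summed to 0.726 in KO against 12.8 in WT at day 4 and to 3.62 in KO and 1.99 in HET against 3.79 in WT at day 14. The 5 epithelial markers summed to 0.287 in KO against 0.0996 in WT at day 4 and to 9.88 in KO, mostly Krt14, and 0.313 in HET against 2.16 in WT at day 14. Genes of the mitochondrial genome held 1.08% to 1.12% of counts in KO and 0.729% to 0.851% in HET, against 0.484% to 0.542% in WT at day 14. The part of these differences in the histone results was not tested.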

How the data were processed

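Raw counts per gene were deposited, 1 file per library, and the values used are the authors' counts. The tools named are TopHat2 2.1.0 as aligner, GRCm38.p4 as genome, HTSeq as counter and DESeq2, per the submitters' processing notes. Not given in the sources used here: the HTSeq version, the annotation release, the strand setting, and how reads with several matches were treated. Symbols and coordinates came from GENCODE M21 (GRCm38), which named 46091 of 46603 identifiers.

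Counts were tested with edgeR 4.0.16 (limma 3.58.1, R 4.3.3) by a quasi-likelihood F test with robust dispersion on all 15 libraries, after filterByExpr and TMM scaling. It covered 15296 genes and 7 comparisons, adjusted by Benjamini-Hochberg within each, with a threshold of 0.05. SEs are Wald SEs, never below counting error. Summed levels are CPM without TMM scaling, other levels are CPM of TMM-scaled libraries. Where a group had no count, folds are bounds with 3 counts over the group, and for 1 to 3 counts an exact 95% interval of the ratio is given.

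Members, gene lists and tests were chosen with earlier results of these data known. Named members are the 8 with the highest CPM per kb, the 3 largest increases and decreases per comparison among those called with at least 1 CPM, those called in all 3 comparisons with WT, and genes of lists with the smallest adjusted p. The edgeR fit was tested on simulated counts, for KO against WT at day 14 only. The genes changed there all had higher expected counts, so the simulation does not bear on calls from few counts.

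Alternatives were DESeq2 1.42.0, RLE scaling, library size alone, no filter beyond 1 count, 1 CPM in 3 libraries, a fit of the compared groups alone, a block for the replicate number, splines of exon length and of GC (5 df) with and without that block, and each library left out.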

Additional observations from a re-analysis of the deposited data

Results flagged for a closer look

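For 6 members the KO difference changed between the days, by the test of the interaction in edgeR. It was larger at day 14 for Hist1h1c (1.69), Hist1h1b (2.45), Hist1h2bc (1.84) and Hist2h3c2 (3.1, from 2 counts in WT at day 14). It was smaller at day 14 for Hist1h4i (-1.14) and for Hist1h2ae (-3.92, from 1 count in WT at day 4). The Hist1h2ae value ran from -5.47 without WT replicate 2 of day 4 to -3.35 without WT replicate 1 of day 4, where it no longer passed (edgeR adjusted p = 0.0533). The Hist1h1b value also lost its call without WT replicate 1 of day 4 or KO replicate 3 of day 14. The values are differences of log2 fold changes. No explanation was tested.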

How the results depend on the processing

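Of 61 called member values, 44 kept their call under every alternative that gave a value and 17 lost it under at least 1. With a filter of 1 CPM only 10 members were tested, and the calls were 4 higher in KO against WT and 5 in HET against WT at day 14, 1 in KO against HET, 4 in KO against WT at day 4, 5 higher and 1 lower between days in WT, and 7 higher in KO. With no filter beyond 1 count 61 were tested, with 1 lower in KO at day 4 and 15 higher between days in WT. Fitting only the groups compared (15 tested) gave 5 higher in HET and, between days in WT, 5 higher and 1 lower. Library size alone gave 1 lower between days in WT and 4 lower in the interaction, as did DESeq2 for the interaction (4). The length and GC correction gave 1 lower in KO at day 4, with or without the replicate block, and 1 lower between days in KO.

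With TMM scaling, summed levels (CPM) were 45.9 in KO and 33.8 in WT at day 4, a smaller difference than the 46.8 and 31.2 without it. At day 14 they were 127.2 in KO and 151.8 in HET against 58.6 in WT with that scaling. With only members of at least 10 mean counts they were 42.6 in KO and 29.8 in WT at day 4 and 123.5 in KO and 57.8 in WT at day 14. Without Hist1h1c they were 21.6 in KO and 9.34 in WT at day 4, and 53.5 in KO and 71.2 in HET against 38.5 in WT at day 14.

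With 1 library left out, calls higher and lower ranged over 8 to 9 and 0 to 0 (KO against WT, day 14), 8 to 10 and 0 to 1 (HET against WT), 2 to 4 and 2 to 4 (KO against HET), 8 to 12 and 0 to 0 (KO against WT, day 4), 6 to 9 and 1 to 2 (days in WT), 9 to 12 and 0 to 1 (days in KO) and 3 to 4 and 1 to 4 (interaction). These fits tested 21 or 22 members. Sums ranged over 46.1 to 48.0 in KO and 30.9 to 31.6 in WT at day 4, and over 127.9 to 131.4 in KO, 134.2 to 159.6 in HET and 60.9 to 64.1 in WT at day 14.

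Signs turned for values that had not passed. Hist1h1c turned to 0.019 in KO against HET with the length and GC correction (0.022 with the replicate block too) and 0.077 without HET replicate 2, to -0.207 and -0.204 in KO against WT at day 4 with that correction, without and with the block, and to 0.0986 between days in WT with library size alone. Hist1h2ap turned to -0.011 (library size alone) in HET against WT, where leaving out a HET library gave -0.187 to 0.288, and to 0.577 with the correction in KO against WT (0.58 with the block). Hist1h4i between days in KO was 0.0015 without KO replicate 3 of day 4. The cause was not tested. Library size alone moved the median log2 fold change of all genes to -0.12 in HET against WT, 0.17 in KO against WT at day 4, 0.28 between days in WT and -0.27 in the interaction, and no filter to -0.13 in KO against WT at day 14, 0.43 between days in WT and -0.43 in the interaction.

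Same-numbered libraries did not pair: over 30 pairs, the correlation of their deviations ran over -0.15 to 0.179 and exceeded 0.1 in 1. With the replicate number as a block, the members higher were 8 in KO and 9 in HET against WT at day 14, 2 in KO against HET, 10 in KO against WT at day 4, and, between days, 7 in WT and 10 in KO. Depth limits most members: the 48 not tested had at most 80 counts over the 15 libraries.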
